A study of Homo sapiens with 27 samples.

Results

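The 3 SK-N-SH libraries of replicate 3 were set against the 6 SK-N-SH libraries of replicates 1 and 2, out of 27 libraries from 3 cell lines. The members were chosen by their replicate label alone, and each construct was compared with itself. SK-N-SH is a neuroblastoma line; the other lines, BON-1 and QGP-1, come from pancreatic neuroendocrine tumours. The SK-N-SH cells had been transfected with full-length MAML3 (FL), with MAML3 lacking exon 1 (dEx1) or with the empty vector, and 1 library of each construct belongs to each of replicates 3, 1 and 2. MAML3 is a co-activator of Notch-driven transcription. All 9 cultures received a pCMV6-AC plasmid by Lipofectamine, the MAML3 proteins carried a V5 tag at the C terminus, and RNA was taken on day 3. The transfection was transient and the vector cultures kept their own MAML3. The labels call the replicates biological and do not say whether they were plated, prepared or sequenced at different times. Such an order cannot be told apart from the replicate number, so the p-values measure how these libraries differ against the spread between libraries.

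Neuroblastoma arises from the sympathoadrenal lineage of the neural crest. Neuroblastoma cells can take an adrenergic state, held by transcription factors such as HAND2 and GATA3 and marked by catecholamine enzymes and neuronal genes, or a mesenchymal state marked by vimentin, matrix and contractile genes. SK-N-SH is known as a mixed line that holds both neuroblast-like and flat, substrate-adherent cells. In bulk RNA, fewer cells of a kind and less RNA per cell cannot be told apart. Levels below are CPM, counts scaled to the TMM-adjusted library size, and are compared between libraries and never between genes. Differences are log2 values, replicate 3 minus the mean of replicates 1 and 2 with construct as a block, with their standard error. A gene was called at a Benjamini-Hochberg adjusted p under 0.05 in edgeR's quasi-likelihood test.

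Replicate 3 differed from the other 2 replicates in 2917 of 15153 genes tested (19.3%). Of these, 1626 genes were higher in replicate 3 (10.7% of those tested) and 1291 were lower (8.52%). In 2863 of the called genes replicate 3 lay beyond both other replicates under each construct, so that trait is common to nearly all calls. It is not confined to them. Among all 15153 genes tested, called or not, replicate 3 lay above both other replicates under each construct in 2777 and below both in 2427. Where a single gene below is said to be separated within each construct, that is to be read against these counts. The share of calls that were higher was 55.7%, against 43.7% when all 27 libraries shared 1 fit, with 1411 calls, and 44.1% when only FL and dEx1 libraries were used, with 93 calls. Large differences leaned the other way: 456 called genes (3.01%) differed at least 2-fold, of which 336 were lower in replicate 3 (2.22%) and 120 were higher (0.792%). Replicate 3 differed from replicate 1 in 794 genes (5.24%) and from replicate 2 in 2214 genes (14.6%), whereas replicate 2 differed from replicate 1 in 4 genes (0.0264%; 488, or 3.22%, at an unadjusted p under 0.05, and 37 called by DESeq2). The median absolute log2 difference over all genes was 0.234 between replicates 3 and 1, 0.277 between replicates 3 and 2, and 0.111 between replicates 2 and 1. Leaving out the vector library of replicate 3 reduced the calls to 758, and leaving out any other single library left 1583 to 2714.

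Principal component 2 of log2 CPM held 18.9% of the variance and placed the replicate 3 libraries at 26.2 to 67.9, with replicates 1 and 2 at -44.2 to 16.9. Component 1, with 38.7%, separated FL from dEx1. On it the vector library of replicate 3 lay at -41.7, on the dEx1 side, whereas the vector libraries of replicates 1 and 2 lay at 29.2 and 28.8. This library stands apart from its own group, and the counts of called list members below are also given without it. The interaction of construct with replicate 3 was not refitted without it. Over all genes, 410 of 15043 were called higher and 348 lower without this library, and 41 and 52 of 14709 with FL and dEx1 libraries only. List counts from these fits are to be read against these totals.

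**Figure D1:**
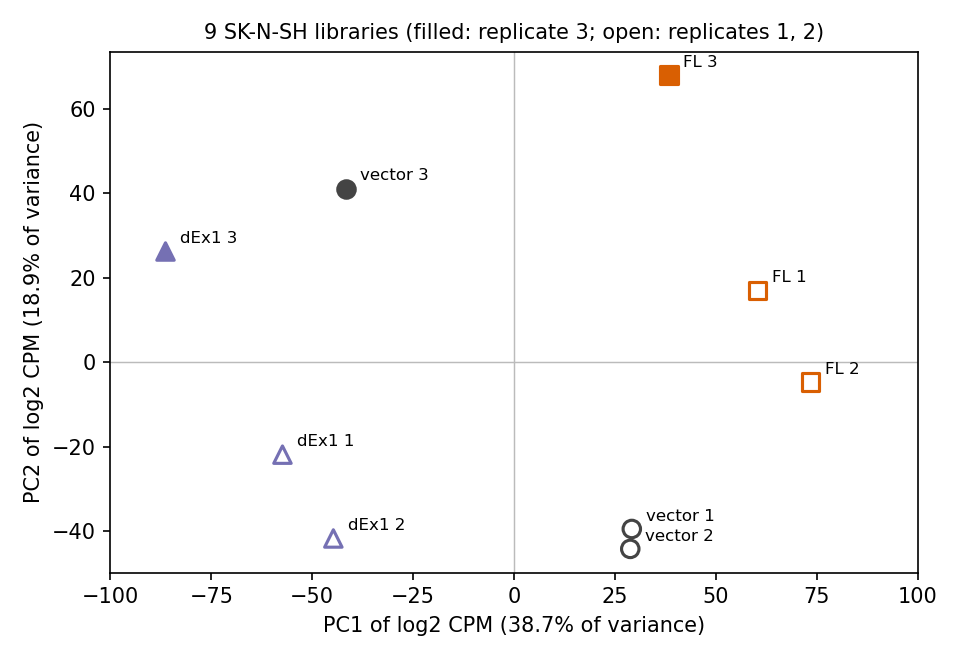
Principal components 1 and 2 of log2 CPM for the 9 SK-N-SH libraries, in arbitrary units, with the share of variance on each axis; colour and shape give the construct, filled symbols replicate 3 and open symbols replicates 1 and 2. The filled symbols lie at 26.2 to 67.9 on component 2, above the open ones at -44.2 to 16.9, and the vector library of replicate 3 lies at -41.7 on component 1.

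The transfected gene itself was measured first. MAML3 (chr4:140637907-141075338, hg19) stood at 7638, 4774 and 18.2 CPM in the FL, dEx1 and vector libraries of replicate 3, against 11936, 8996 and 16.3 CPM in replicate 1 and 15305, 13347 and 29.3 CPM in replicate 2. MAML3 was therefore raised in every FL and dEx1 library, though counts per gene symbol cannot tell the 2 constructs apart. With both it was lowest in replicate 3, while the vector library lay between the other two. The log2 difference was -0.79 ± 0.24 (adjusted p = 0.0573, not called). This lower construct level runs alongside the results below in the FL and dEx1 libraries, and its part in them was not tested. The vector cultures carried no MAML3 construct. Total counts were 89124542 to 105566404 in replicate 3 and 81739994 to 97874108 in replicates 1 and 2. As a check of the cell type, vimentin lay at 3403 to 7106 CPM, HAND2 at 33.5 to 122 CPM and GATA3 at 36.5 to 64.1 CPM over the 9 libraries. The epithelial markers EPCAM, CDH1 and KRT19 did not exceed 0.416, 0.137 and 0.36 CPM. TH, which encodes tyrosine hydroxylase, fell below the filter on low counts. Of 11 tested markers of pancreatic epithelial or endocrine lines, the keratins KRT8 and KRT18 alone were called, both higher in replicate 3 (0.41 and 0.76). Of 5 tested markers of blood and endothelial cells, CD14 was called, at 0.208 to 0.909 CPM in replicate 3 against 0.988 to 2.22 CPM in replicates 1 and 2. Over all genes, 10.7% were called higher and 8.52% lower.

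Cell cycle genes were higher in replicate 3. In the list of S phase and DNA replication genes 17 of 18 members were called higher and none lower, and in the list for G2 and mitosis 14 of 17 were higher and none lower, against 10.7% higher over all genes. The median differences were 0.73 and 0.66, with -0.014 over all genes. Promoters of these genes are shown because both lists moved together and each class is known for its own promoter element: E2F factors act on S phase genes, and the cell cycle homology region (CHR) acts on mitotic genes. The sequences are the 250 bases before the annotated start, 5′ to 3′ on the gene's strand, from RefSeq on GRCh38.p14. Capitals mark E2F words (TTTCCCGC, TTTGCCGC, TTTCGCGC or TTTGGCGC) in the first 3 and CHR words (TTTGAA or TTTAAA) in the last 4, on either strand. The 4 hits in MCM6 overlap in pairs.
MCM3, chr6:52284743-52284992, minus strand: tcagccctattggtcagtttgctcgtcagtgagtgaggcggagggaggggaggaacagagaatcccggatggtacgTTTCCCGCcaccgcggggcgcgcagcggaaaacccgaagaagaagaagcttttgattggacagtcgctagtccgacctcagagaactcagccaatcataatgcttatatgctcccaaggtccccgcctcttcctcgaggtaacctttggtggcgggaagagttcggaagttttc
MCM6, chr2:135876444-135876693, minus strand: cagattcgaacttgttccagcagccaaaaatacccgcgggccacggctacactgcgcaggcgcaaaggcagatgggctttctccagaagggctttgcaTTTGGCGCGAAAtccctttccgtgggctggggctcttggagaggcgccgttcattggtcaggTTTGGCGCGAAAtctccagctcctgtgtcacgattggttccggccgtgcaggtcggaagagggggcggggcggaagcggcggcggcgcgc
PCNA, chr20:5126623-5126872, minus strand: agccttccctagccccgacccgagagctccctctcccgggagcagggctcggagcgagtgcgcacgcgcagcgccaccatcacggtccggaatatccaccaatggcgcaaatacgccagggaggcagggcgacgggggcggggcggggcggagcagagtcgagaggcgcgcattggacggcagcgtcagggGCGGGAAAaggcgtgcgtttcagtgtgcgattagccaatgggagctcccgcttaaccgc
RRM2, chr2:10122489-10122738, plus strand: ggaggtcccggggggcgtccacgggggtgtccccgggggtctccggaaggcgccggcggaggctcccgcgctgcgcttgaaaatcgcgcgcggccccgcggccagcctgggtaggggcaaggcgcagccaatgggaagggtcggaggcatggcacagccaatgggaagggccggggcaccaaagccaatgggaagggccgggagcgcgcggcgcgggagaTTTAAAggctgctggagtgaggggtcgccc
CCNB1, chr5:69166900-69167149, plus strand: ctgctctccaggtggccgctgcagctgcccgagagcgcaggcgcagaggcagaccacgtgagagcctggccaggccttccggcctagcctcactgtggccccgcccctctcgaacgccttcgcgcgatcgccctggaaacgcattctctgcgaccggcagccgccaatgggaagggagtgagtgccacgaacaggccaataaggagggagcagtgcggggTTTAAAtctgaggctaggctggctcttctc
CDK1, chr10:60778081-60778330, plus strand: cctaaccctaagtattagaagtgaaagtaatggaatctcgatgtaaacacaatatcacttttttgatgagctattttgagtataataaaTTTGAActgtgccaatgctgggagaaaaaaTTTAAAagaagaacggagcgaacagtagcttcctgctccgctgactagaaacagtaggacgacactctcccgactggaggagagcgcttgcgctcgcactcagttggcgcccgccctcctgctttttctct
PLK1, chr16:23678639-23678888, plus strand: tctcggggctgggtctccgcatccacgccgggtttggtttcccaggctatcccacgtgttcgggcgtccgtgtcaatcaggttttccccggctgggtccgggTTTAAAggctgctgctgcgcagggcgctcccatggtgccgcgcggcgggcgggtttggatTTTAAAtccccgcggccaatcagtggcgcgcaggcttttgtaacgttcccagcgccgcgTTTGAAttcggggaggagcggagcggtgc
An E2F word occurred in 8 of the 15 S phase promoters found in the table and in 0 of 13 promoters of the G2 and mitosis list, against 4.01% of the 11276 promoters of genes tested. A CHR word occurred in 11 of 13 promoters of the G2 and mitosis list and in 1 of 15 of the S phase list (RRM2), against 15.1% of the promoters of genes tested. Over all 27305 promoters the shares were 2.79% and 22.1%. A match is a run of letters and not a measured binding site. The promoters shown were chosen among those with a match. The shares describe the sequences of the listed genes and do not depend on the values of replicate 3.

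The MCM helicase unwinds DNA ahead of the replication fork, and its members moved by similar amounts. MCM4 (chr8:48872745-48890720) had 216, 243 and 226 CPM in the FL, dEx1 and vector libraries of replicate 3, against 140.2, 169.9 and 127 CPM in replicate 1 and 122, 149 and 122 CPM in replicate 2. All 3 libraries of replicate 3 exceeded all 6 others, and the difference was 0.73 ± 0.075 (adjusted p = 0.00297). MCM2 differed by 0.74, MCM3 by 0.51, MCM5 by 0.68, MCM6 by 0.78 and MCM7 by 0.44, all called. RRM2, the small subunit of ribonucleotide reductase, stood at 286, 228 and 228 CPM in replicate 3, against 125, 152 and 108 CPM in replicate 1 and 113, 107 and 85.6 CPM in replicate 2. Its groups did not overlap and the difference was 1.11 ± 0.13 (adjusted p = 0.00371). FEN1, the flap endonuclease of lagging-strand synthesis, had 148, 162 and 143 CPM in replicate 3, against 86.7, 108 and 83.8 CPM in replicate 1 and 86.1, 91.7 and 78.8 CPM in replicate 2, a difference of 0.76 ± 0.065 (adjusted p = 0.00209). CDC45, which joins MCM in the active helicase, differed by 1.02 ± 0.11 and PCNA, the sliding clamp, by 0.54 ± 0.08. The transcription factor gene E2F1 was the exception in the list, with 35.7 to 58.2 CPM in replicate 3 and 27.5 to 45.6 CPM in replicates 1 and 2 (adjusted p = 0.226).

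Among mitotic genes, CDK1, the kinase that drives entry into mitosis, showed 51, 67 and 58.9 CPM in the FL, dEx1 and vector libraries of replicate 3, against 31.1, 41.3 and 23.7 CPM in replicate 1 and 24.4, 26.5 and 16.4 CPM in replicate 2. The lowest replicate 3 library lay above the highest of the others, and CDK1 had the greatest difference of its list, 1.15 ± 0.19 (adjusted p = 0.00821). UBE2C, a ubiquitin-conjugating enzyme of the anaphase-promoting complex, differed by 0.89 ± 0.13, BIRC5 (survivin) by 0.78 ± 0.11, BUB1, a spindle checkpoint kinase, by 0.68 ± 0.10 and AURKB, the chromosomal passenger kinase, by 0.70 ± 0.11. The proliferation marker MKI67 was not called: it had 187, 217 and 187 CPM in replicate 3, against 209, 169 and 119.6 CPM in replicate 1 and 102, 150.5 and 119 CPM in replicate 2 (adjusted p = 0.138), and the FL library of replicate 1 exceeded that of replicate 3. AURKA and CENPF were not called either. For MCM4, RRM2, FEN1, CDK1 and MKI67 each construct had a lower value in replicate 2 than in replicate 1, but no member of either list was called between these 2 replicates.

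The list of cell cycle inhibitors and quiescence genes had 4 of 15 members called lower and 1 higher, against 8.52% and 10.7% over all genes. CDKN1B (p27), an inhibitor of cyclin-dependent kinases, was lower by the log2 value -0.45 ± 0.11, and FOXO1, TXNIP and CCNG2 by -0.41, -0.59 and -0.52. CDKN2C (p18), which inhibits CDK4 and CDK6 and is itself known as an E2F target, was higher by 0.68 ± 0.11. Without the vector library of replicate 3, 15 S phase and 3 G2 and mitosis members were called higher, and 0 of the inhibitors were called lower. With FL and dEx1 libraries only, 2 S phase members and 0 of the G2 and mitosis members were called higher. With all 27 libraries in 1 fit, whose spread is shared with the other lines, the counts were 2 and 1. Over all genes, these fits called 410 of 15043, 41 of 14709 and 616 of 17286 higher.

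Adrenergic genes were lower in replicate 3. Of 18 members tested, 10 were called lower and none higher, against 8.52% lower over all genes, with a median of -0.81. PHOX2A, a homeodomain factor of noradrenergic neurons, had 0.811, 2.99 and 1.58 CPM in the FL, dEx1 and vector libraries of replicate 3, against 5.28, 9.25 and 9.76 CPM in replicate 1 and 8.64, 11.1 and 7.85 CPM in replicate 2. Each replicate 3 library was below every other library, and the difference was -2.40 ± 0.29 (adjusted p = 0.00371). TFAP2B (chr6:50786436-50815332), an AP-2 factor of the sympathetic lineage, had 0.396, 0.794 and 0.252 CPM in replicate 3, against 3.82, 5.15 and 6.82 CPM in replicate 1 and 6.14, 7.47 and 7.95 CPM in replicate 2. The groups did not overlap and the difference was -3.73 ± 0.39 (adjusted p = 0.00297). HAND1 (-2.38), GATA2 (-1.19), SIX3 (-0.92), SATB1 (-0.51) and ISL1 (-0.37) were also called lower.

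Other factors of the same circuit were not called. HAND2 had 33.5, 122 and 58.7 CPM in replicate 3, against 57.9, 122 and 71 CPM in replicate 1 and 63, 111 and 73.3 CPM in replicate 2 (adjusted p = 0.143), with the dEx1 libraries of replicates 3 and 1 level. GATA3 differed by -0.22 ± 0.075 (adjusted p = 0.08) and TBX2 by -0.14 ± 0.064 (adjusted p = 0.165). The differences between the responses of these genes were not tested.

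DLK1 (chr14:101192042-101204561), a membrane protein related to the Notch ligands and made by chromaffin and neuroblastoma cells, was at 2.26, 2.2 and 1.89 CPM in the FL, dEx1 and vector libraries of replicate 3, against 20.9, 22.8 and 31.1 CPM in replicate 1 and 37.7, 28.4 and 34.1 CPM in replicate 2. The highest value in replicate 3 was below the lowest of the other libraries under each construct. The difference was -3.77 ± 0.24 (adjusted p = 0.00154). DBH (chr9:136501485-136524451), dopamine beta-hydroxylase, which makes noradrenaline from dopamine, had 3.49, 4.84 and 3.12 CPM in replicate 3, against 23.8, 25.3 and 35.4 CPM in replicate 1 and 43.3, 32.9 and 36 CPM in replicate 2. Its difference was -3.10 ± 0.26 (adjusted p = 0.00209), again with no overlap.

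The catecholamine list had 3 of 10 tested members called lower and none higher, against 8.52% lower over all genes. The 3 members were DBH, DDC and SLC6A2. DDC (chr7:50526134-50633102), the decarboxylase that makes dopamine, had 0.465, 0.374 and 0 CPM in replicate 3, against 4.62, 2.95 and 5.42 CPM in replicate 1 and 7.62, 5.05 and 5.9 CPM in replicate 2. The vector library of replicate 3 held no DDC counts, so the fitted value of -4.32 depends on the prior count and is no bound. SLC6A2, the noradrenaline transporter by which neuroblastoma cells take up MIBG, had 0.247, 1.12 and 1.03 CPM in replicate 3, against 5.39, 4.84 and 9.01 CPM in replicate 1 and 10.8, 8.3 and 9.96 CPM in replicate 2, a difference of -3.41 ± 0.50 (adjusted p = 0.00559). The vesicular transporter genes SLC18A1 and SLC18A2 and MAOA, a degrading enzyme, were not called.

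Neuronal genes followed, with 15 of 24 called lower and 2 higher, against 8.52% and 10.7% over all genes, and a median of -0.94. NEFL (chr8:24808468-24814235), the neurofilament light chain, had 0.722, 0.374 and 0.35 CPM in replicate 3, against 3.76, 3.45 and 3.4 CPM in replicate 1 and 4.4, 3.6 and 4.2 CPM in replicate 2, and the groups were far apart. Its difference was -3.02 ± 0.23 (adjusted p = 0.00185). ELAVL4, a neuronal RNA-binding protein, had 0.693, 0.703 and 0.898 CPM in replicate 3, against 4.77, 4.25 and 10.4 CPM in replicate 1 and 8.85, 8.68 and 12.3 CPM in replicate 2, a difference of -3.38 ± 0.33 (adjusted p = 0.00263). ELAVL3 differed by -2.61 ± 0.24 and SCG3, a granin of secretory granules, by -2.52 ± 0.25. CHGA, chromogranin A, was at 1.55 to 2.96 CPM in replicate 3 and 7.07 to 18.4 CPM in replicates 1 and 2, STMN2 at 1.6 to 3.7 and 5.16 to 10.7 CPM, and NCAM1, the neural cell adhesion molecule, at 97.8 to 127 and 146 to 194 CPM, all called lower. The 2 members called higher were TUBB3, beta-III tubulin, at 0.80 ± 0.15, and SCG2, secretogranin II, at 0.96 ± 0.15. SCG2 had 499.9, 1465 and 1399 CPM in replicate 3, against 366, 795 and 514 CPM in replicate 1 and 366, 728 and 527 CPM in replicate 2, so SCG2 moved in the opposite direction from the granin genes SCG3 and CHGA. GAP43, MAP2, VAMP2 and NEFH were not called.

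**Figure D2:**
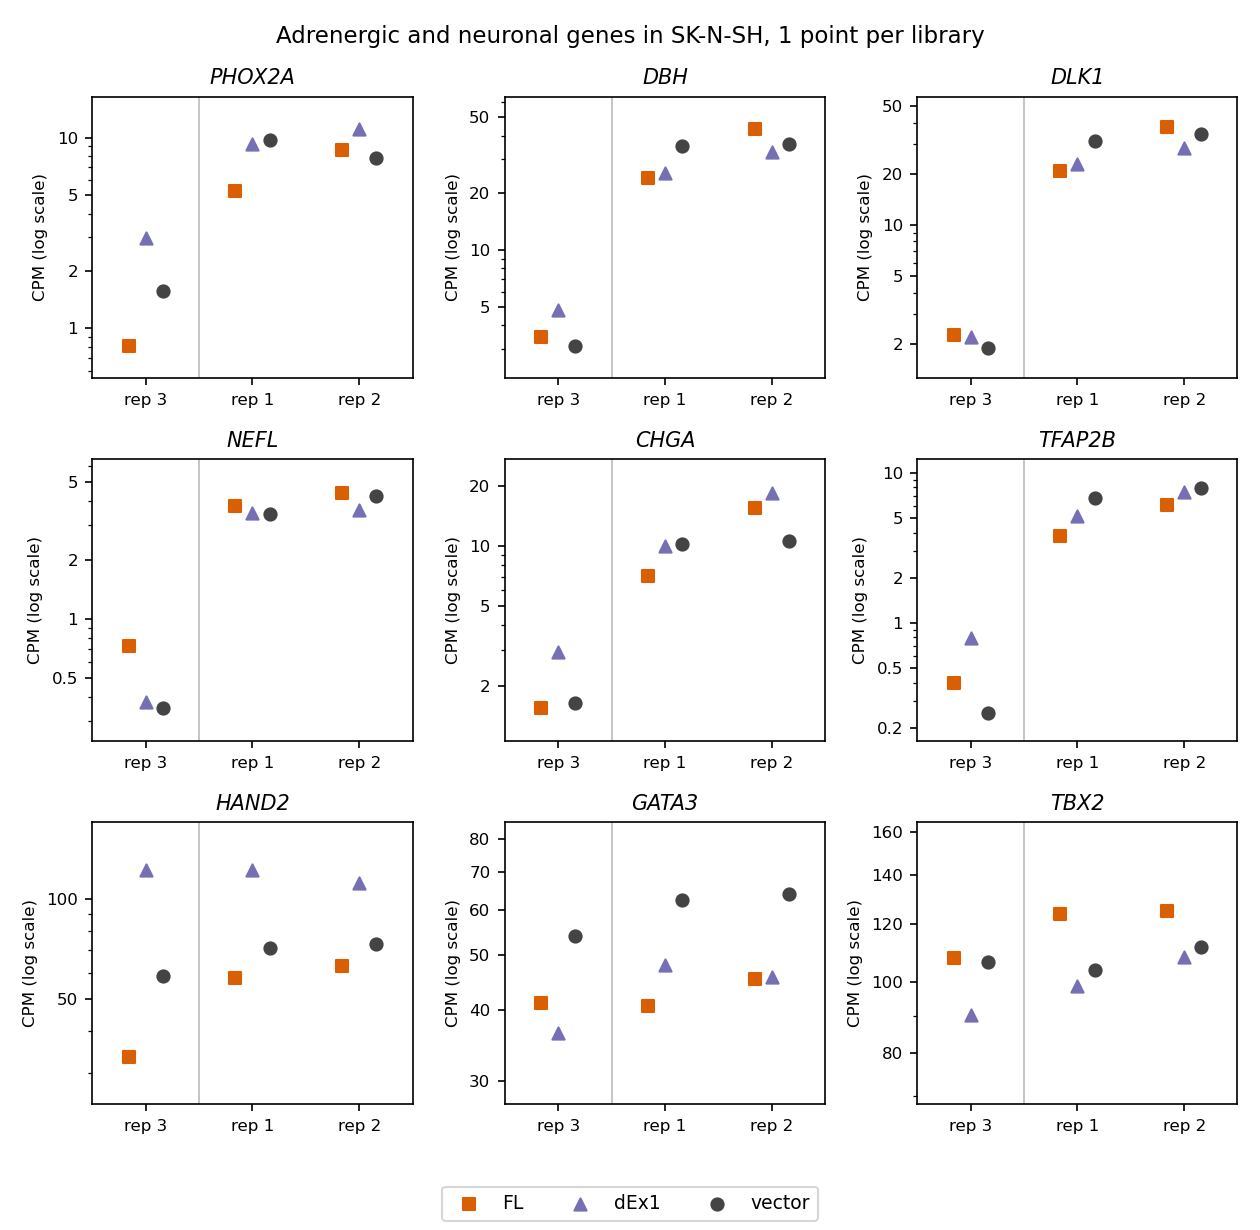
CPM on a log scale (y axis) of 9 adrenergic and neuronal genes in the replicates of SK-N-SH (x axis), with 1 point per library and colour and shape for the construct. PHOX2A, DBH, DLK1, NEFL, CHGA and TFAP2B are lower in replicate 3 under every construct, with DBH at 3.12 to 4.84 CPM against 23.8 to 43.3 CPM, while HAND2, GATA3 and TBX2 overlap.

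Without the vector library of replicate 3, 5 adrenergic, 3 catecholamine and 11 neuronal members were called lower, and with FL and dEx1 libraries only, 4, 2 and 3. Over all genes, 348 of 15043 and 52 of 14709 were called lower in these fits. TFAP2B, DBH and DLK1 kept an adjusted p under 0.05 in both, the highest being 0.036 for DBH.

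The 12 genes with the greatest decrease, ranked among called genes with replicate 3 below both other replicates under each construct and at least 5 CPM in the higher group, held 4 of the genes above (DDC, DLK1, TFAP2B and SLC6A2). THSD7A (chr7:11409992-11871824), a thrombospondin-repeat membrane protein, led them with 0.168, 0.476 and 0.274 CPM in replicate 3, against 5.25, 5.16 and 8.44 CPM in replicate 1 and 8.15, 6.83 and 10.3 CPM in replicate 2, a difference of -4.59 ± 0.38 (adjusted p = 0.00209). NPY, the neuropeptide Y precursor released with noradrenaline, had 0.673, 0.987 and 0.657 CPM in replicate 3, against 5.49, 5.42 and 10.1 CPM in replicate 1 and 13.4, 6.73 and 12.7 CPM in replicate 2, a difference of -3.47 ± 0.41. H19 (chr11:2016396-2025782), an imprinted long noncoding RNA, had 2.12, 3.92 and 0.646 CPM in replicate 3, against 20.6, 20.4 and 26.2 CPM in replicate 1 and 28.9, 20.8 and 22.5 CPM in replicate 2. Its neighbour IGF2 (chr11:2150342-2179621), a growth factor gene imprinted in the other direction, had 0.594, 0.476 and 0.361 CPM in replicate 3, against 5.99, 3.69 and 6 CPM in replicate 1 and 7.62, 3.66 and 4.48 CPM in replicate 2. The 2 neighbours differed by -3.51 ± 0.48 and -3.43 ± 0.23 (adjusted p = 0.00472 and 0.00154). NNAT, neuronatin, differed by -3.48 ± 0.36, SHD by -3.85 ± 0.45, UBE2QL1 by -3.57 ± 0.40 and PLEKHA6 by -3.54 ± 0.37.

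The 12 genes with the greatest increase, ranked in the same way, were led by DPT, ISLR, ITIH3 and MMP11. DPT (chr1:168664706-168698444), dermatopontin, a matrix protein that binds decorin and collagen fibrils, had 69.8, 112 and 109 CPM in the FL, dEx1 and vector libraries of replicate 3, against 5.76, 20.3 and 5.23 CPM in replicate 1 and 3.93, 12.1 and 5.91 CPM in replicate 2. The lowest replicate 3 library was above the highest of the others, and the difference was 3.69 ± 0.28 (adjusted p = 0.00185). ISLR (chr15:74466051-74469213), a leucine-rich repeat protein known from mesenchymal stromal cells as meflin, had 7.11, 24.9 and 17 CPM in replicate 3, against 0.383, 2.88 and 1.22 CPM in replicate 1 and 0.78, 5.1 and 1.46 CPM in replicate 2, a difference of 3.31 ± 0.28 (adjusted p = 0.00209). MMP11 (chr22:24110413-24126503), the stromal protease stromelysin-3, had 63.7, 244 and 233 CPM in replicate 3, against 16, 75.2 and 29.3 CPM in replicate 1 and 14.1, 77.2 and 29.6 CPM in replicate 2, a difference of 2.28 ± 0.20 (adjusted p = 0.0022). For MMP11 the FL library of replicate 3 was below the dEx1 libraries of the other replicates. The separation held within each construct, which the ranking required. SERPINI1, neuroserpin, differed by 2.17 ± 0.15 and ITIH3, a hyaluronan-binding inhibitor heavy chain, by 2.30 ± 0.51. RARRES2 (chemerin) differed by 1.88, CLIC3 by 1.74, MMP28 by 1.64 and IL13RA2, the decoy receptor for interleukin 13, by 1.61. MEST, an imprinted gene expressed from the paternal allele, was higher by 1.62 ± 0.32. Without the vector library of replicate 3, ITIH3, IL13RA2 and MEST were not called in edgeR's test (adjusted p = 0.144, 0.0906 and 0.0632). The others of the 12 were still called.

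Of 22 matrix glycoprotein and proteoglycan genes tested, 8 were called higher and none lower (median 0.29), against 10.7% higher over all genes. THBS1 (chr15:39873280-39891667), thrombospondin 1, which activates latent TGF-beta, had 1753, 3970 and 3631 CPM in replicate 3, against 847, 2440 and 988 CPM in replicate 1 and 863, 1906 and 975 CPM in replicate 2. Within each construct replicate 3 was highest, and the difference was 1.29 ± 0.17 (adjusted p = 0.0046). LUM, lumican, differed by 0.99 ± 0.15, SPARC by 0.92 ± 0.19, BGN, biglycan, by 0.42 ± 0.085 and LOXL1, a lysyl oxidase, by 0.35 ± 0.072. FN1 (fibronectin) lay at 2256 to 3115 CPM in replicate 3 and 2408 to 3613 CPM in replicates 1 and 2 and was not called. Among 15 collagens 4 were higher and 3 lower, against 10.7% and 8.52% over all genes. COL1A1 had 3033, 7179 and 5785 CPM in replicate 3, against 1857, 6550 and 2055 CPM in replicate 1 and 1626, 4499 and 1734 CPM in replicate 2, a difference of 0.96 ± 0.21 (adjusted p = 0.0202), and COL3A1 differed by 1.02 ± 0.22. COL12A1 was lower by -1.65 ± 0.27 and did not exceed 2.63 CPM in any library, and COL7A1 and COL6A3 were lower by -0.91 and -0.33.

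Of 15 TGF-beta and SMAD targets 6 were called higher and 2 lower, against 10.7% and 8.52% over all genes. TAGLN (chr11:117070086-117078180), transgelin, an actin-binding protein of contractile cells, had 496, 1324 and 1104 CPM in the FL, dEx1 and vector libraries of replicate 3, against 267, 921 and 318 CPM in replicate 1 and 213, 685 and 285 CPM in replicate 2, a difference of 1.24 ± 0.20 (adjusted p = 0.00752). ACTA2, smooth muscle actin, had 88, 705 and 411 CPM in replicate 3, against 66.1, 417 and 89.6 CPM in replicate 1 and 56.8, 263 and 82.6 CPM in replicate 2, a difference of 1.33 ± 0.29 (adjusted p = 0.0182). In replicates 1 and 2 the ACTA2 level was 417 and 263 CPM with dEx1 and 89.6 and 82.6 CPM with vector, whereas the vector library of replicate 3 reached 411 CPM. LMCD1, a regulator of GATA factors, had the same form, with 10.9, 64.1 and 56.6 CPM in replicate 3, against 5.26, 32.7 and 8.63 CPM in replicate 1 and 5.65, 27.8 and 6.94 CPM in replicate 2, and TNNT2, cardiac troponin T, differed by 2.02 ± 0.41. CNN1, calponin, was higher by 1.18 ± 0.23 at no more than 4.37 CPM. SKIL and BAMBI, both TGF-beta inhibitors, were lower by -0.56 and -0.41.

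In the wider mesenchymal list 3 of 19 members were called higher and 1 lower, against 10.7% and 8.52% over all genes, and the median was near 0. VIM had 6410 to 7106 CPM in replicate 3 and 3403 to 6035 CPM in replicates 1 and 2, a difference of 0.60 ± 0.10 (adjusted p = 0.00861), and TWIST1, a mesenchymal transcription factor, differed by 0.34. RUNX1 was lower by -0.51. PRRX1, a factor that can drive the mesenchymal state, had 592, 490.3 and 629.6 CPM in replicate 3, against 642, 572 and 454 CPM in replicate 1 and 816, 589 and 436 CPM in replicate 2, with opposite directions under the constructs (adjusted p = 1). Without the vector library of replicate 3, 3 matrix, 1 collagen, 3 TGF-beta and 0 mesenchymal members were called higher, and with FL and dEx1 libraries only, 3, 0, 1 and 0. DPT, ISLR, MMP11, THBS1 and LMCD1 kept an adjusted p under 0.05 in both fits, the highest being 0.0384 for THBS1. Over all genes, 410 of 15043 and 41 of 14709 were called higher in these fits.

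**Figure D3:**
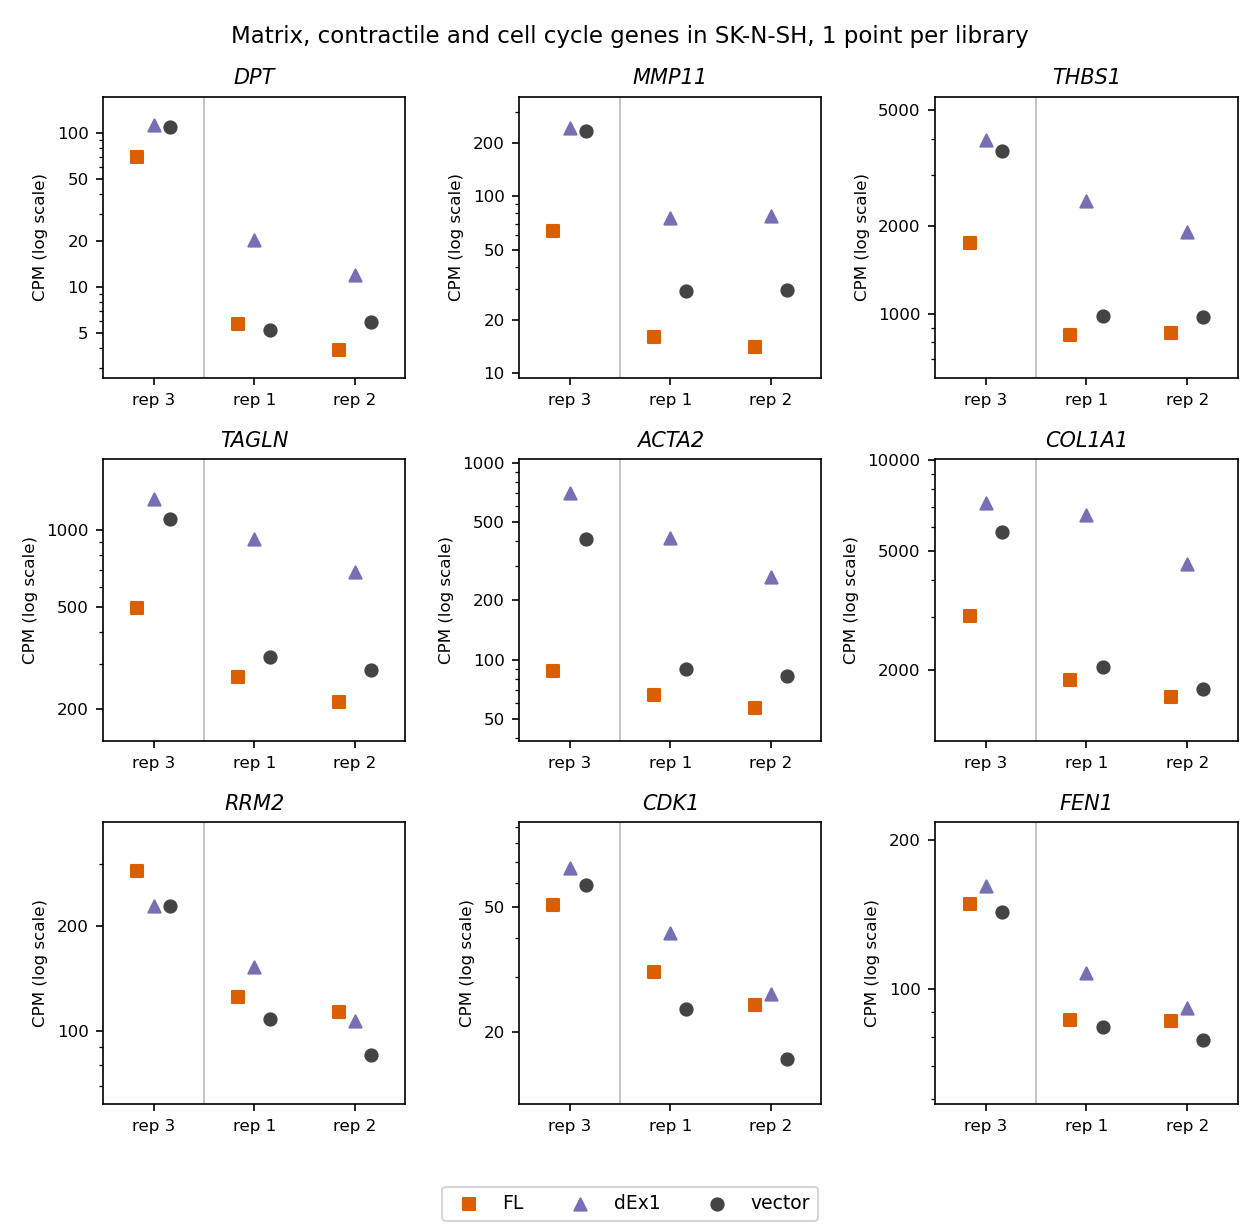
CPM on a log scale (y axis) of matrix, contractile and cell cycle genes in the replicates of SK-N-SH (x axis), with 1 point per library and colour and shape for the construct. Within each construct replicate 3 is highest for all 9 genes, as for DPT at 69.8 to 112 CPM against 3.93 to 20.3 CPM, and the vector library of replicate 3 lies nearer to dEx1 than in replicates 1 and 2 for TAGLN, ACTA2 and COL1A1.

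Inflammatory genes controlled by NF-kB were lower in replicate 3, with 9 of 17 called lower, none higher and a median of -1.03. Over all genes, 8.52% were called lower. CXCL8 (chr4:74606236-74609433), the neutrophil chemokine interleukin 8, had 1226, 20.2 and 73.3 CPM in the FL, dEx1 and vector libraries of replicate 3, against 3837, 47.3 and 306 CPM in replicate 1 and 4845, 56.9 and 329.9 CPM in replicate 2. It was by far highest with FL in each replicate, and within each construct replicate 3 was lowest. The difference was -1.76 ± 0.15 (adjusted p = 0.00233). CXCL2 had 52.4, 0.975 and 2.72 CPM in replicate 3, against 244, 2.14 and 12.5 CPM in replicate 1 and 400.0, 3.56 and 9.66 CPM in replicate 2, a difference of -2.12 ± 0.28 (adjusted p = 0.00452). CCL20, which attracts CCR6-bearing cells, differed by -1.63 ± 0.19 and CXCL3 by -2.47 ± 0.30. IL1B had 38.4, 0.147 and 1.02 CPM in replicate 3, against 162, 0.546 and 3.74 CPM in replicate 1 and 279, 0.897 and 2.29 CPM in replicate 2, and CSF2 differed by -0.79. NFKBIA, the inhibitor induced by NF-kB itself, was lower by only -0.25 ± 0.071. CCL2 was not called, with 117 to 623 CPM in replicate 3 and 132 to 718 CPM in replicates 1 and 2, nor were the subunit genes NFKB1 and NFKB2. The count was 6 without the vector library of replicate 3, and 2 with FL and dEx1 libraries only. Over all genes, 348 of 15043 and 52 of 14709 were called lower in these fits.

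ATF4 targets of the amino acid response were lower, with 8 of 15 called and none higher (median -0.35), against 8.52% lower over all genes. TRIB3, a pseudokinase induced by ATF4, had 203, 56.5 and 148 CPM in replicate 3, against 363, 141 and 283 CPM in replicate 1 and 326, 144 and 323 CPM in replicate 2, a difference of -1.04 ± 0.11 (adjusted p = 0.00297). SESN2 differed by -0.70 ± 0.10, SLC7A11, the cystine transporter, by -0.70 ± 0.11 and ATF4 itself by -0.24 ± 0.057. The count called lower was 4 without the vector library of replicate 3, and 1 with FL and dEx1 libraries only. Over all genes, 348 of 15043 and 52 of 14709 were called lower in these fits. VEGFA, in the hypoxia list, was lower by -1.24 ± 0.16, and that list had 2 members higher and 3 lower of 18, against 10.7% and 8.52% over all genes. These counts were 0 higher and 3 lower without the vector library of replicate 3. Heat shock genes had 5 of 11 members higher and none lower, against 10.7% higher over all genes. Among them were DNAJB1 (0.39) and the small heat shock protein gene HSPB1 (1.06). Without the vector library of replicate 3, 1 member was called higher, against 410 of 15043 genes. Sterol genes had 5 of 18 members higher and none lower, against 10.7% higher over all genes, and 0 were called higher without the vector library of replicate 3. Among the 5 were SREBF2, the main activator of that pathway, at 0.29 and DHCR7 at 0.61.

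Genes of the Notch pathway, which MAML3 serves, had 1 of 19 members higher and 3 lower, against 10.7% and 8.52% over all genes. None of 18 tested was called in either direction without the vector library of replicate 3. NOTCH3 was higher by 0.57 ± 0.10 and the target NRARP lower by -0.69 ± 0.14, as were HES6 (-0.37) and the ligand gene DLL1 (-0.71). HES1 lay at 5.77 to 8.54 CPM in replicate 3 and 6.83 to 12.5 CPM in replicates 1 and 2 and was not called. Ribosomal protein genes had 1 of 24 members higher and none lower, against the same 10.7% and 8.52%, and Wnt targets had no call among 8 tested.

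**Figure D4:**
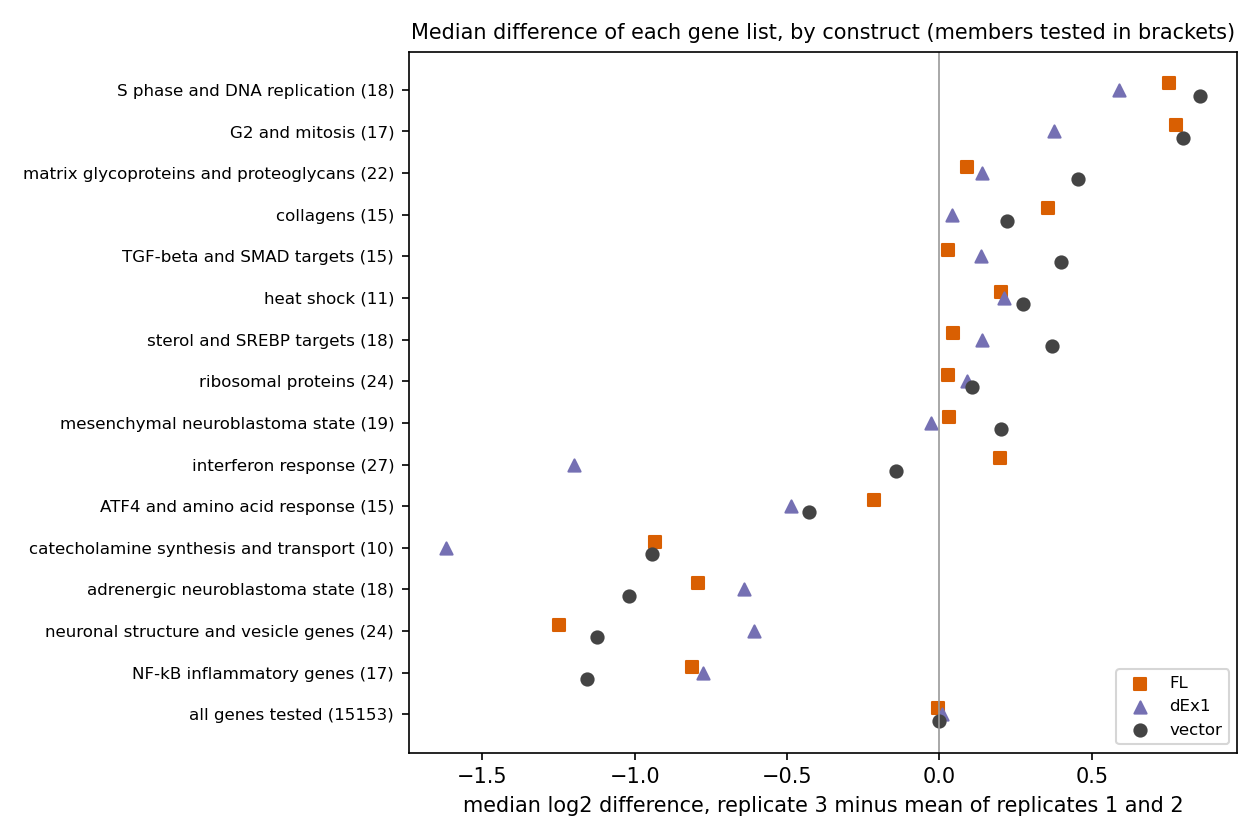
Median log2 difference of 15 gene lists (y axis, with the number of members tested), replicate 3 minus the mean of replicates 1 and 2 (x axis), within each construct, with all genes at the bottom. The S phase list lies at 0.75 (FL), 0.59 (dEx1) and 0.85 (vector) and the interferon list at 0.20, -1.20 and -0.14, while all genes lie near 0.

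Whether the difference of replicate 3 depended on the construct was tested by the interaction of construct with replicate 3, which called 81 of 15756 genes (0.514%). The clearest was CKAP4 (chr12:106631659-106698057), a reticulum-anchoring membrane protein, with 925, 57.7 and 647 CPM in the FL, dEx1 and vector libraries of replicate 3, against 778, 515 and 752 CPM in replicate 1 and 790.2, 515 and 731 CPM in replicate 2. The dEx1 library of replicate 3 was far below the others with that construct, and the FL and vector libraries stayed between 647 and 925 CPM (interaction adjusted p = 0.00127). GUCD1 was high in the vector library of replicate 3, at 147 CPM against 30.5 and 26.8 CPM in the other vector libraries, and differed little with dEx1 (29.5 against 29.4 and 28.9 CPM; interaction adjusted p = 0.0275). HSD11B1, which regenerates cortisol, was low in the FL library of replicate 3, at 3.14 CPM against 30.7 and 28.7 CPM (interaction adjusted p = 0.0275). GAREM1 was lower with vector, at 10.7 CPM in replicate 3 against 35.2 and 34.8 CPM, and higher with FL, at 34 against 17.4 and 15.7 CPM.

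Of the interferon-response list, 14 of 27 members were past the interaction threshold, against 0.514% of all genes. MX1 (chr21:42791947-42841998), an antiviral GTPase, had 2023, 284 and 1618 CPM in the FL, dEx1 and vector libraries of replicate 3, against 1569, 732 and 1778 CPM in replicate 1 and 1628, 799 and 1689 CPM in replicate 2. With dEx1 it was lower in replicate 3 (-1.43 on the log2 scale), with FL higher (0.34) and with vector close to the other replicates (-0.099; interaction adjusted p = 0.0275). IFI27 had 419.8, 17.9 and 164 CPM in replicate 3, against 399, 68.9 and 321 CPM in replicate 1 and 417, 80.9 and 331 CPM in replicate 2. The dEx1 library of replicate 3 was below both other dEx1 libraries for all 27 members (35.9% of all genes), and the FL library was above both others for 19 of 27 (39.1% of all genes). The vector library was below both others for 21 of 27 (42.4% of all genes). In the fit over constructs 1 member, IFI44L, was called lower (-0.80 ± 0.17), and 0 without the vector library of replicate 3.

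**Figure D5:**
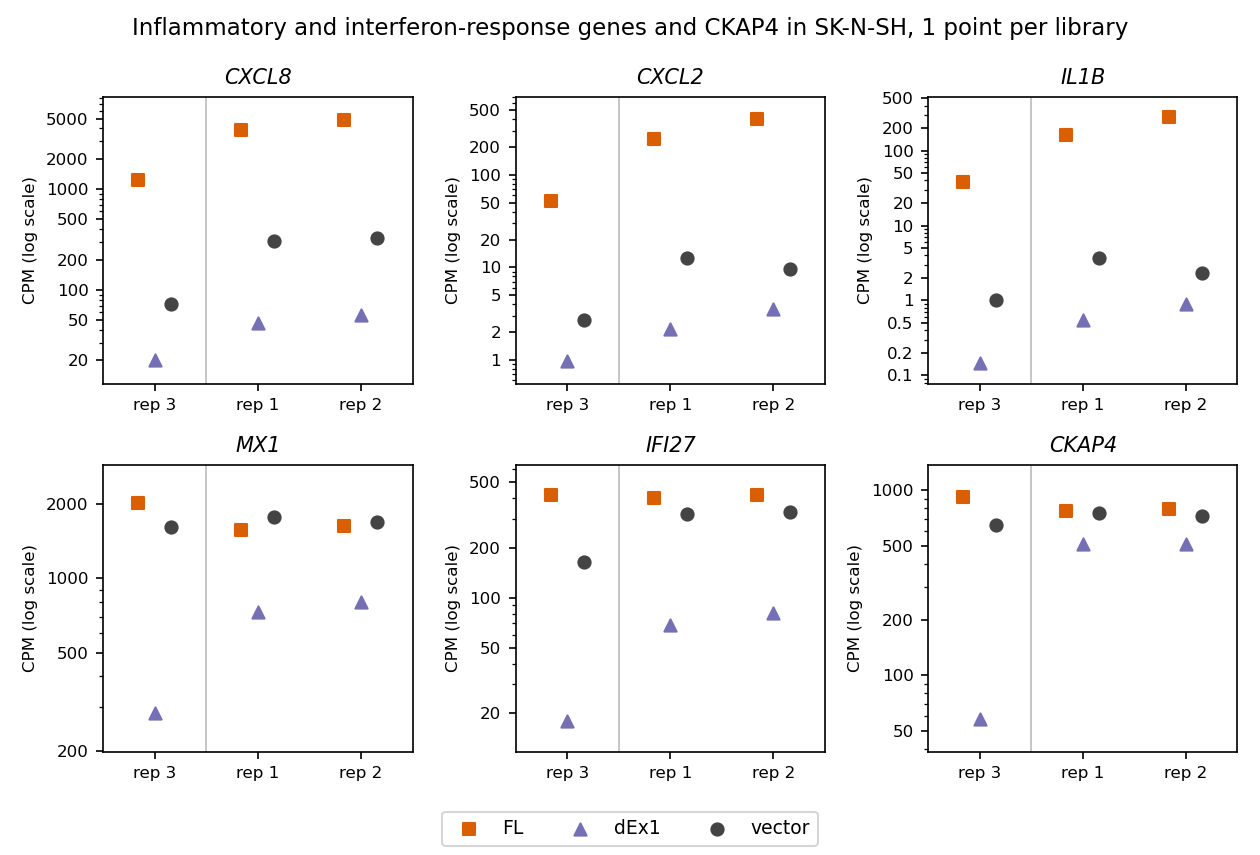
CPM on a log scale (y axis) of CXCL8, CXCL2, IL1B, MX1, IFI27 and CKAP4 in the replicates of SK-N-SH (x axis), with 1 point per library and colour and shape for the construct. The first 3 genes are lowest in replicate 3 under every construct, while for MX1 and CKAP4 it is the dEx1 library of replicate 3 that is low, at 284 and 57.7 CPM against 732 and 799 CPM and 515 and 515 CPM.

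The same contrast was made in the other lines. In BON-1, replicate 3 differed from replicates 1 and 2 in 1515 of 15305 genes (9.90%), and in QGP-1 in 2 of 14873 (0.0134%; 4522, or 30.4%, at an unadjusted p under 0.05 and 3007 called by DESeq2). Both counts hang on single libraries. Without the vector library of replicate 2, QGP-1 had 5816 calls among 14783 genes. Without the vector library of replicate 1, BON-1 had 4587 among 15219. Leaving out any other single library gave 0 to 2 calls in QGP-1 and 403 to 1309 in BON-1. Of 2731 SK-N-SH calls that could be tested in BON-1, 353 were also called there and 215 of these had the same direction. The calls of the same direction are 7.87% of the SK-N-SH calls and 15.9% of the 1348 BON-1 calls. None of the S phase or of the G2 and mitosis members was called in BON-1, where CDK1 stood at 79.5 CPM in replicate 3 and 95.5 CPM in replicates 1 and 2. NF-kB genes were called higher in BON-1, 5 of 15 tested against 6.77% of all genes, and interferon genes likewise, 6 of 27, whereas in SK-N-SH no member of either list was called higher. More lists leaned the other way. Of 18 sterol members, 3 were called lower and 1 higher in BON-1, and 4 of 10 fatty acid synthesis members were lower. In SK-N-SH, 5 sterol and 2 fatty acid synthesis members were higher and 0 lower. Of 12 NRF2 antioxidant members, 5 were higher in BON-1 and 3 lower in SK-N-SH. The neuronal and TGF-beta lists leaned the same way in both lines. Of 20 neuronal members tested in BON-1, 7 were called lower and 0 higher, against 3.13% lower over all genes. Of 14 TGF-beta and SMAD targets, 4 were called higher and 0 lower. The difference between the lines was not tested.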

How the data were processed

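Poly(A) RNA was sequenced from 27 libraries, 3 replicates of 3 constructs in 3 cell lines. Per the submitters' processing notes, the authors trimmed reads with Trimmomatic, aligned them to hg19 with HISAT2 and quantified them with StringTie. The values were deposited as estimated counts per gene symbol, whole numbers in this table, made by the authors. The tool versions, annotation, use of strand and the step from abundance to count are not given in the sources used here. Overlapping and antisense genes can therefore share reads. Of 23234 rows, 4 repeated another row exactly and 23230 genes were used. No column was left unmapped.

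Library totals were TMM-scaled and genes filtered with filterByExpr. edgeR 4.0.16 (R 4.3.3) fitted construct plus replicate 3 over the 9 SK-N-SH libraries, with quasi-likelihood F tests and Benjamini-Hochberg adjustment over all genes tested. Replicate pairs, the construct by replicate 3 interaction (2 degrees of freedom) and the same contrast in BON-1 and QGP-1 were fitted likewise. DESeq2 1.42.0, other scaling and filters, and leaving out each library were alternatives. In simulated counts for this comparison, with 200 of 15153 genes changed, 29.9%, 71% and 76.6% of genes changed 1.5-, 2- and 4-fold were called, and 4 of 122 calls were false. The simulated libraries were drawn independently, without variation shared by libraries of a replicate. The simulation therefore does not measure error from such shared variation. Gene positions came from GENCODE v44 lifted to GRCh37 and promoters from RefSeq. Named genes were MAML3, the 12 with the largest increase and the 12 with the largest decrease (called, on 1 side under each construct, at least 5 CPM in the higher group, noncoding loci with LOC, LINC, MIR, SNOR, RNU or antisense symbols left out), up to 4 called members per list and 5 interaction genes. Further list members and IFI27 were named after their values were seen. The comparison and the gene lists were chosen with earlier results of these data known. Some list members are not reported here by name. Of 39 lists, 37 had a member tested. For abundant genes counting error is small at these depths, so precision is limited by the number of libraries. For genes at low CPM it may be larger, since how many reads a count stands for is not known. With all counts divided by 5, 3180 of 13021 genes were called in the main comparison. The replicates are biological per the labels, which give no day or batch for them.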

Additional observations from a re-analysis of the deposited data

Results flagged for a closer look

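For 6 of the genes named above, the difference of replicate 3 itself differed between the constructs by the interaction test in edgeR. CKAP4 differed by 0.24 with FL, -3.16 with dEx1 and -0.20 with vector on the log2 scale (interaction adjusted p = 0.00127). GUCD1 differed by 0.31, 0.016 and 2.36 (adjusted p = 0.0275), HSD11B1 by -3.23, 0.77 and 0.27 (adjusted p = 0.0275) and GAREM1 by 1.04, -0.062 and -1.70 (adjusted p = 0.0275). The interferon-response genes MX1, with 0.34, -1.43 and -0.099 (adjusted p = 0.0275), and IFI27, with 0.043, -2.06 and -0.99 (adjusted p = 0.0275), were lower in replicate 3 with dEx1. Each such value rests on 1 library of replicate 3 per construct, and leaving out single libraries of replicates 1 and 2 left 2 to 61 interaction calls, against 81 with all.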

How the results depend on the processing

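Replicate number was not a block in the main fit. For each library the deviation of log2 CPM from the mean of its construct was taken. Between same-numbered libraries these deviations correlated at 0.047 to 0.0834 for replicate 1, 0.229 to 0.25 for replicate 2 and 0.301 to 0.425 for replicate 3. Between replicate 3 and the other numbers the correlations ran from -0.369 to -0.084. The deviations still hold the replicate 3 difference that was tested, so the values for replicate 3 restate it. They cancel out within a construct, so positive values within a number tend to bring negative ones between numbers. Variation shared by the libraries of replicate 3 beyond that difference cannot be read from them. The main fit treats these libraries as independent, which they may not be. With replicate number as a block of 3 levels, 2632 genes were called, against 2917. DESeq2 called 2068 genes lower in replicate 3, and 2437, 3783 and 37 genes for replicates 3 against 1, 3 against 2 and 2 against 1, 1189 for the interaction, 2840 in BON-1 and 3007 in QGP-1. With all 27 libraries in 1 fit, 1411 genes were called (616 higher, 795 lower), and with FL and dEx1 libraries only, 93 (41 higher, 52 lower). With no filter on low counts the interaction called 136 genes. Leaving out 1 library gave 758 to 2714 calls (410 to 1497 higher and 348 to 1217 lower), 24 to 807 for replicates 3 against 1, 317 to 1943 for 3 against 2, 1 to 5 for 2 against 1, 2 to 61 for the interaction, 403 to 4587 in BON-1 and 0 to 5816 in QGP-1. The lowest main count was without the vector library of replicate 3; 1641 and 1583 genes were called without the vector libraries of replicates 1 and 2, and 1846 and 1960 without the FL and dEx1 libraries of replicate 2. Of 154 single genes called, 22 were called under every alternative run, 5 were not called with the replicate block, 75 not without the vector library of replicate 3, 79 not in the fit of all 27 libraries and 128 not with FL and dEx1 libraries only. Direction turned for 4 genes without a call. GAREM1 was at 0.52 with FL and dEx1 libraries only, and without 1 library it ranged from -0.80 to 0.52 (the highest without the vector library of replicate 3). CKAP4 ranged from -1.41 to 0.026 and MX1 from -0.71 to 0.13 (both highest without the dEx1 library of replicate 3), and HSD11B1 from -1.44 to 0.53 (highest without the FL library of replicate 3). The causes were not tested. Where FL and dEx1 libraries alone were used, fewer libraries entered the fit.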

Other observations

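Imprinted genes appeared at both ends of the ranking, and a list of 21 was drawn up after these values were seen. Of 18 tested, 5 were called lower and 1 higher, against 8.52% and 10.7% over all genes. The genes that prompted the list are counted in it, so nothing is read from these counts. The lower ones were H19, IGF2, DLK1, NNAT and RTL1, the neighbour of DLK1 (-3.21 ± 0.38), and the higher one was MEST. No test was made on this list.

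The median log2 difference per chromosome ran from -0.06 (chromosome 6, 696 genes) to 0.070 (chromosome 22, 349 genes).

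The 4 genes called between replicates 2 and 1 were IER2, SLC5A10, ISY1 and RMDN1. IER2, an immediate early gene, had 38.2, 20.1 and 39.6 CPM in the FL, dEx1 and vector libraries of replicate 3, against 193, 140.5 and 272 CPM in replicate 1 and 31.3, 17.7 and 33.9 CPM in replicate 2. SLC5A10 had 33.4, 23.2 and 23.8 CPM in replicate 3, against 3.56, 4.17 and 3.96 CPM in replicate 1 and 23, 26.1 and 24.4 CPM in replicate 2, and was low in replicate 1 alone. ISY1 had 44.8 to 54.8 CPM in replicate 3 and was high in replicate 1, and RMDN1, with 27.3 to 34.7 CPM in replicate 3, was low in replicate 2.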
